A study of Sus scrofa with 30 samples.

Results

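The genes described here are 100 abundant transcripts of neonatal porcine islet-like cell clusters (NICCs) whose mean levels stayed within 1.5-fold in 3 comparisons. NICCs are clusters of islet cells isolated from the pancreas of newborn piglets and matured in vitro. For each of 25880 genes in the count table, the count was divided by the total of its library and expressed as CPM, the number of counts per 1000000 counts of the library. Log2 ratios were then formed from the mean CPM of 4 libraries per condition, with 0.5 added to each mean. A gene was kept when the ratios HSA/d5 over HSA/d1, Fet-A/d5 over HSA/d5 and HSA+SB/d5 over HSA/d5 were all smaller than 0.585 in size, which is 1.5-fold. Of the 21426 genes kept outside the mitochondrial genome, the 100 with the highest mean CPM in HSA/d5 are the members. Because the measured ratios chose the members, values in these 3 comparisons are given as a description, and calls in them are not results about the members.

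The RNAseq experiment comprised 24 libraries from 6 conditions with 4 libraries each, and all clusters came from pig islets with no genetic change. HSA (human serum albumin) was the control protein in the maturation medium and was present on maturation day 1 (HSA/d1, culture day 6) and day 5 (HSA/d5, culture day 10). The other conditions were sampled on maturation day 5. Fetuin-A, a plasma glycoprotein made by the liver, took the place of HSA in Fet-A/d5, whereas SB431542, an inhibitor of the TGFβ receptor kinase, was added to HSA in HSA+SB/d5. An agent named LDN in the labels, not identified further in the sources used here, was added to HSA in HSA+LDN/d5 and to HSA with SB431542 in HSA+SB+LDN/d5. The clusters were prepared from 4 islet isolations from neonatal piglets of 2 ages, and the labels do not tell which isolation or age a library belongs to. The p values below therefore measure the spread between these libraries, which may in part be technical, and comparisons were unpaired.

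Total counts ranged from 18883734 to 24346119 per library, with a median of 20924473, and the smallest count of any member in any library was 6451. A total of 36 pairs of libraries of the same condition differed beyond counting noise, with a chi-square per degree of freedom between 12.7 and 72.7. The summed CPM of 5 islet hormone genes lay between 1668 and 34189 in all libraries, so islet cells were represented in each of them. No islet hormone was a member. Markers of acinar cells, duct, mesenchyme, endothelium and immune cells were also detected in every condition, and none of the genes that define these cells was at 0 where the table held an identifier for it. These are bulk libraries, in which fewer cells of a type and less RNA per cell cannot be told apart.

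Abundant transcripts with steady levels mostly belong to the machinery that every cell runs, namely the actin skeleton, protein folding, mRNA translation, splicing, glycolysis and lysosomes. Epithelial cells add adherens junctions, in which the cadherins of neighbouring cells bind each other and β-catenin and α-catenin link them to actin, and keratin filaments anchored at desmosomes. Endocrine cells add hormones and the proteins of secretory granules. Genes of the common machinery are often taken as internal references for qRT-PCR, and their use for that purpose rests on how little they move between conditions.

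A symbol was available for 91 of the 100 members and 9 are known by identifier only. By role, 16 members serve RNA and translation, 15 are matrix and cell surface proteins, 13 belong to the cytoskeleton, 12 to the secretory pathway and 10 to metabolism. Junctions and keratins account for 8, signalling and survival for 8, lysosomes for 5, and folding and degradation in the cytosol for 4. SPP1 and KRT7 are on the list of duct markers and VIM is on that of mesenchyme, while KRT8, KRT18, CDH1 and EPCAM are shared by epithelial cells, endocrine cells included. The libraries are of whole clusters, so the members are described by the tissue and not by the endocrine cell. Transcript lengths were not used, so CPM counts reads and the order by CPM is no order of molecules between genes. Members with near-identical copies elsewhere in the genome, such as ACTB and ACTG1, RPS4X, GAPDH, PTMA, NPM1 and TMSB10, may share reads with those copies and are uncertain in level.

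Together the members took 9.06% ± 0.274 of all counts in HSA/d1, 8.91% ± 0.349 in HSA/d5, 9.20% ± 0.190 in Fet-A/d5, 8.89% ± 0.186 in HSA+SB/d5, 8.70% ± 0.275 in HSA+LDN/d5 and 8.74% ± 0.0918 in HSA+SB+LDN/d5 (SD, n = 4 each). Single libraries lay between 8.44% and 9.41%. A further 99 genes were at least as abundant as the last member and were left out for a ratio at or past the bound, 75 of them in the maturation ratio, 50 in the fetuin-A ratio and 20 in the SB431542 ratio. They took 11.1% to 17.8% of the counts and included 24 ribosomal protein genes, 8 secretory granule genes, 7 collagens and 4 islet hormones.

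The member with the most reads was ACTG1 (ENSSSCG00000028355), the cytoplasmic γ-actin. Its CPM were 3586, 3642, 3624 and 3743 in HSA/d1, 3135, 3817, 3166 and 3350.3 in HSA/d5, and 3933, 3941, 3445 and 3957 in Fet-A/d5. They were 3376, 3643, 3199.8 and 3360.0 in HSA+SB/d5, 2932, 3464, 2992 and 3029 in HSA+LDN/d5, and 3060.0, 3218, 3141 and 3088 in HSA+SB+LDN/d5. In Fet-A/d5, 3 of 4 libraries lay above all those of the other conditions, and HSA/d1 lay above HSA+LDN/d5 and HSA+SB+LDN/d5 without overlap. The 24 libraries spanned 1.35-fold.

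SPP1 (ENSSSCG00000009216) encodes osteopontin, a secreted phosphoprotein of duct epithelium and matrix. The mean CPM was 4328 ± 1059 in HSA/d1, 3127 ± 1149.7 in HSA/d5, 4628 ± 607 in Fet-A/d5, 3056 ± 389 in HSA+SB/d5, 2561 ± 255 in HSA+LDN/d5 and 2704 ± 312 in HSA+SB+LDN/d5 (SD, n = 4 each). In HSA/d5 its libraries were at 2083, 3076, 4741 and 2609, the first of which was the lowest of all 24 libraries. SPP1 thus met the bound with a spread between libraries that was wide for a member.

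Junction genes were among the most abundant members. CDH1 (ENSSSCG00000025652), which encodes E-cadherin, had means between 1967 and 2266 CPM, and all conditions overlapped. KRT8 (ENSSSCG00000000252), a keratin of simple epithelia, was the member nearest to the bound. Its CPM were 2835, 2820.1, 2283 and 2539 in HSA/d1, 1847, 2084, 1693 and 1407 in HSA/d5, and 1631, 1196, 1302 and 1229 in Fet-A/d5, while HSA+SB/d5 libraries were at 2381, 2282, 2207 and 1919. The HSA/d1 libraries lay above all those of HSA/d5, and Fet-A/d5 was the lowest condition. KRT18 (ENSSSCG00000000253), the partner of KRT8 in the filament, was ordered in the same way, with means of 779.9 ± 114 in HSA/d1, 569.9 ± 68.2 in HSA/d5, 421 ± 44.4 in Fet-A/d5 and 681 ± 42.0 in HSA+SB/d5 (SD, n = 4 each).

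PSAP (ENSSSCG00000010281), the precursor of the lysosomal saposins, had 1245 to 1506 CPM in HSA/d1 and 1629 to 2299 in all other libraries. BCAT1 (ENSSSCG00000029163), the cytosolic transaminase of branched-chain amino acids, had means of 983 ± 119.9 in HSA/d1, 1454 ± 476 in HSA/d5 and 2100.4 ± 306 in Fet-A/d5 (SD, n = 4 each). Between HSA/d1 and Fet-A/d5 BCAT1 therefore differed by 2.14-fold, the widest range of condition means of any member, although each step was within the bound. The 10 most abundant members also included ACTB (β-actin), EIF4G2 (a scaffold of translation initiation), MYH9 (the heavy chain of non-muscle myosin IIA) and ENSSSCG00000014540, which has no symbol.

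**Figure D1:**
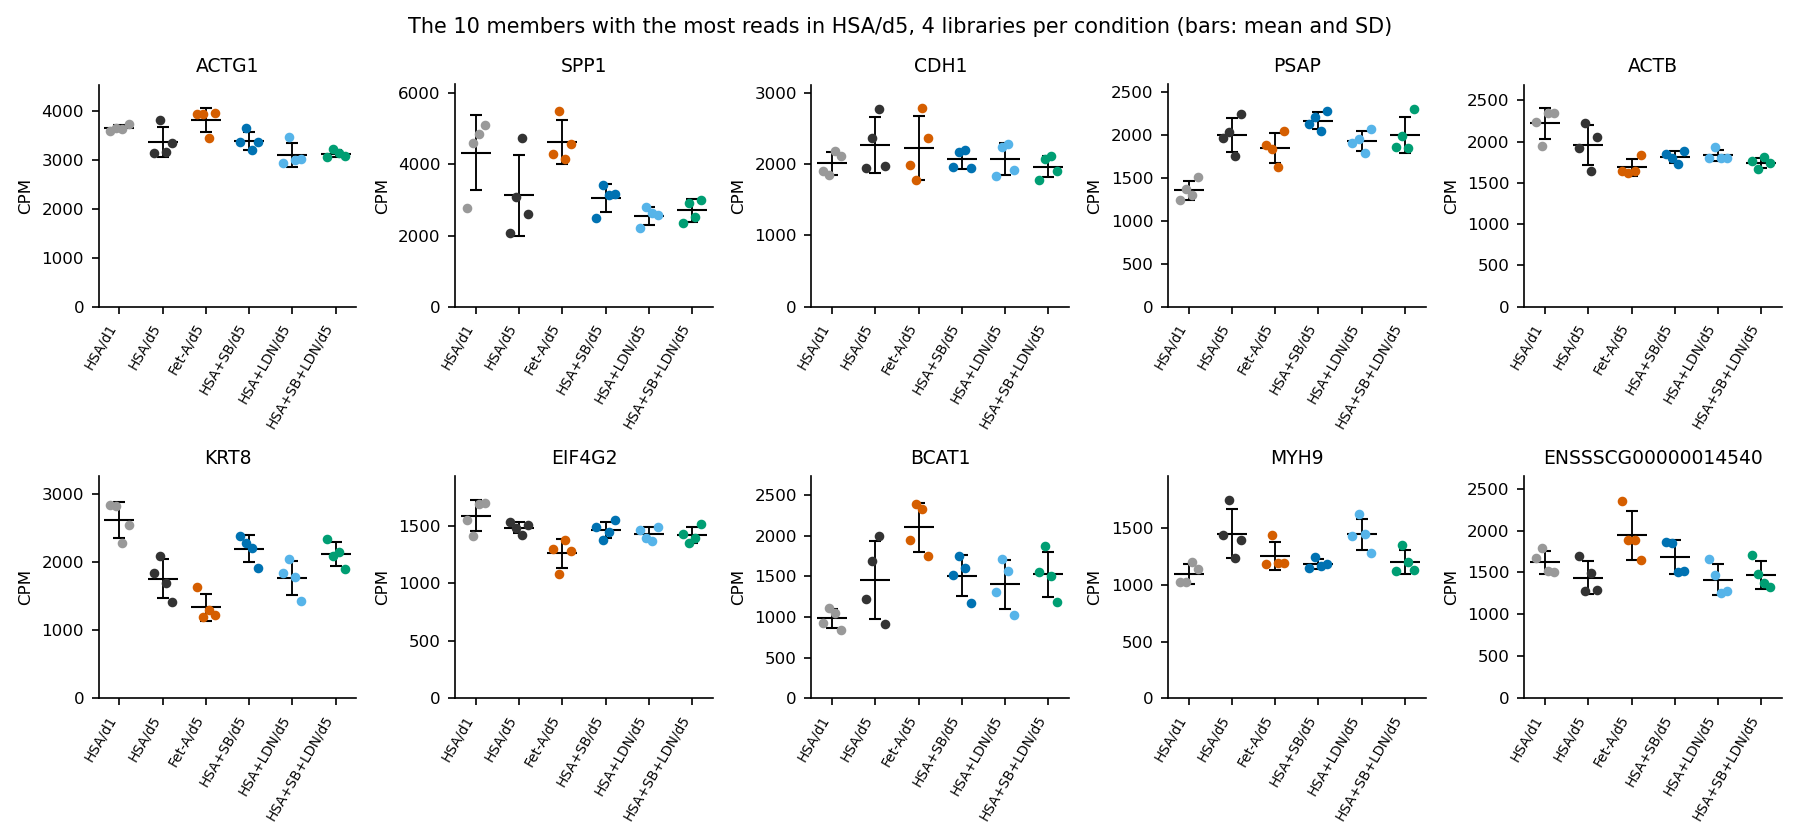
CPM (vertical axis, from 0) of the 10 members with the most reads in HSA/d5, 1 panel per gene, with the 6 conditions on the horizontal axis. Points are libraries (n = 4) and black bars the mean and SD; SPP1 and BCAT1 have the widest spread, and PSAP is lowest in HSA/d1.

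The selection bounds each member against HSA/d5 but not HSA/d1 against fetuin-A. Over all 6 condition means, the highest was between 1.05-fold and 2.14-fold the lowest, with a median of 1.31-fold. The range was under 1.2-fold for 27 members and over 1.5-fold for 20, so "steady" applies to these 20 only against HSA/d5. Across single libraries the highest value was between 1.18-fold (CRK, an adaptor protein of tyrosine kinase signalling) and 2.90-fold (VIM) the lowest, and it was under 1.5-fold for 35 members. The most even condition means were those of NCL, LAMB1 and HNRNPU. NCL (nucleolin, which acts in ribosome assembly) had means between 645 and 675 CPM, with single libraries at 603 to 718. HNRNPU, a nuclear RNA-binding protein, had means between 646 and 694 CPM. CRK, NCL, LAMB1 and HNRNPU were singled out after their values were seen.

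The condition with the highest mean was Fet-A/d5 for 30 members and HSA/d1 for 23, whereas the lowest mean was found in HSA/d1 for 31, in Fet-A/d5 for 26 and in HSA+LDN/d5 for 25. HSA+SB+LDN/d5 held the highest mean of 5 members and the lowest of 4.

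At the edge of the selection, the members just inside the bound were KRT8, with a maturation ratio of -0.58, and TIMP3 and PDIA3, both with a maturation ratio of 0.57. The genes just outside were AGRN, with an SB431542 ratio of -0.61, ACTN4, with a fetuin-A ratio of 0.61, and RPL5, with a maturation ratio of -0.61. TIMP3, an inhibitor of metalloproteinases, and HDLBP, an RNA-binding protein, held ranks 99 and 100 with 502 and 501 CPM in HSA/d5, and the next steady gene was SQSTM1. Genes on either side of these limits hardly differed.

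Within the bound, the members were not ordered alike in the 3 ratios. The maturation ratio (HSA/d5 over HSA/d1) ran from -0.58 to 0.57, with 35 members within 0.1 of 0, the fetuin-A ratio from -0.54 to 0.57, with 27 within 0.1, and the SB431542 ratio from -0.56 to 0.37, with 50 within 0.1. Of all genes tested, 18.6%, 16.9% and 8.04% were at or past the bound in these ratios. With edgeR's quasi-likelihood test and an adjusted p below 0.05, 15 members were called higher and 27 lower in HSA/d5 vs HSA/d1, where 18.9% and 18.7% of the 14842 genes tested were called. The counts were 25 and 13 in Fet-A/d5 vs HSA/d5 (18.3% and 17.3% of all genes) and 3 and 4 in HSA+SB/d5 vs HSA/d5 (3.34% and 3.79%). Nothing is read from these calls, because the same contrasts limited the size of the ratios. The 3 ratios share the HSA/d5 libraries, as numerator or denominator, and were not correlated with each other.

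By role, the secretory pathway stood on the upper side of the maturation ratio. Its 12 members had a median ratio of 0.46, and 11 of them were above 0 (10 of 12 after TMM scaling, with a median of 0.39). Of the 14842 genes tested, 8484 were above 0 by library total and 7232 after TMM scaling. Roles were assigned after the values were seen, and the selection used this ratio, so the counts by role are a description. HSPA5 (ENSSSCG00000005601), the chaperone BiP of the endoplasmic reticulum, had 582, 583, 613 and 664 CPM in HSA/d1 and 788, 804, 910.1 and 1082 in HSA/d5, without overlap. CANX, the lectin chaperone calnexin, had 592, 560.3, 677 and 701 CPM in HSA/d1 and 858, 851, 925 and 932 in HSA/d5. PDIA3 and HSP90B1, a disulphide isomerase and an HSP90 of the same compartment, had means of 486 ± 60.4 and 394 ± 28.4 in HSA/d1 and of 722 ± 59.6 and 549 ± 42.3 in HSA/d5 (SD, n = 4 each). The disulphide isomerase P4HB, by contrast, had 581, 633, 488 and 579 CPM in HSA/d1 and 569.9, 552, 559 and 582 in HSA/d5, which overlapped. Not all folding enzymes of this compartment were thus placed alike. The 5 lysosomal members had a median maturation ratio of 0.37, from -0.12 for CD63 to 0.56 for PSAP, and 4 of them were above 0 (3 after TMM scaling, with a median of 0.30).

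Metabolic members lay on the opposite side, with a median maturation ratio of -0.16 and a median fetuin-A ratio of 0.27. Of the 10, 7 were below 0 in the maturation ratio by library total, and 9 after TMM scaling, with a median of -0.24. Of the 14842 genes tested, 6358 were below 0 by library total and 7610 after TMM scaling. Among the 4 glycolytic members, GAPDH, ENO1 and ALDOA had maturation ratios of -0.47, -0.56 and -0.50, and fetuin-A ratios of 0.25, 0.28 and 0.43. PKM, the pyruvate kinase, had -0.14 and -0.31. The 10 metabolic members ran from -0.56 (ENO1) to 0.57 (BCAT1) in the maturation ratio. HSA/d5 is the numerator of the maturation ratio and the denominator of the fetuin-A ratio, so opposite signs of the 2 are favoured in advance. ENO1 (enolase) was at 1344, 1079, 766 and 1074 CPM in HSA/d1 and at 735, 669, 776 and 717 in HSA/d5, so 1 HSA/d1 library overlapped with HSA/d5. Members of the cytoskeleton and of RNA and translation had median maturation ratios of -0.02 each by library total and -0.10 each after TMM scaling, with members on both sides of 0.

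**Figure D2:**
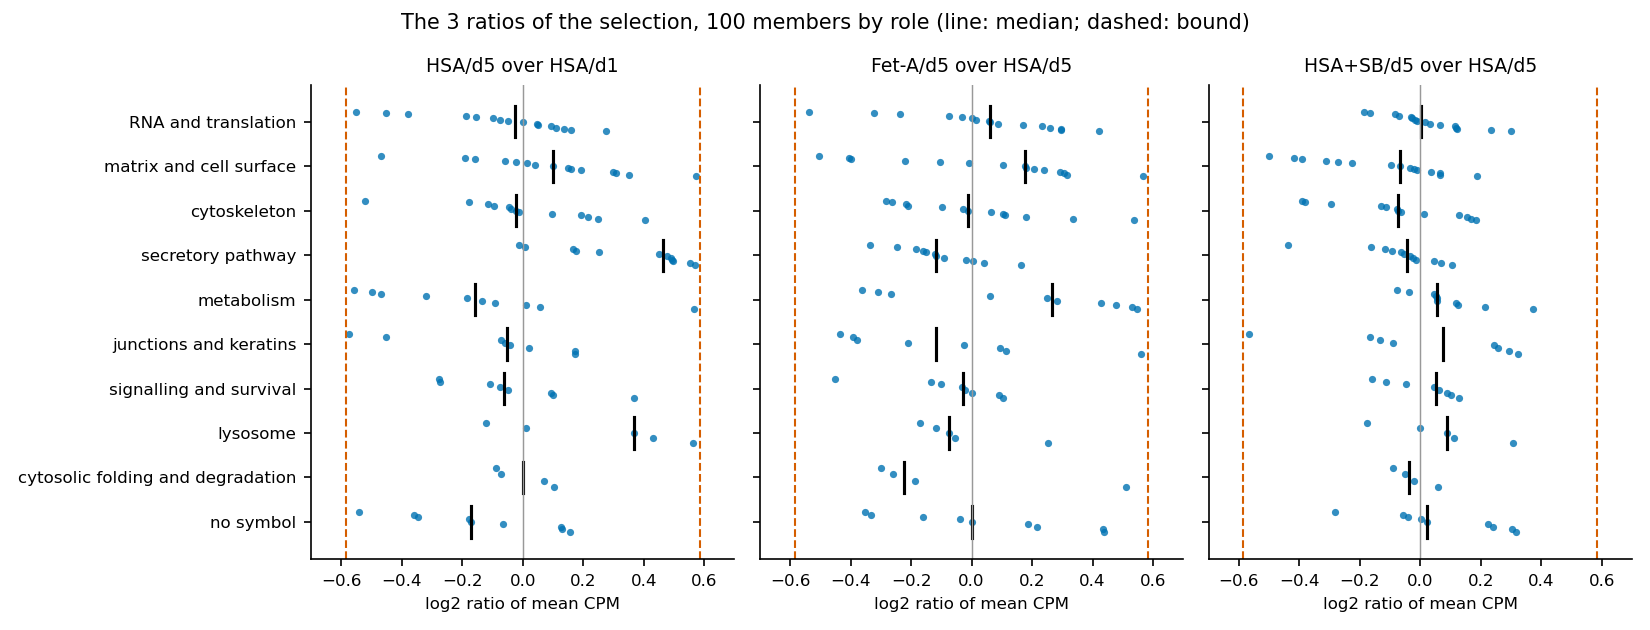
Log2 ratios of mean CPM (horizontal axes) in the 3 comparisons that defined the selection, with the 100 members as points grouped by role on the vertical axis. Black lines are medians and dashed lines the bound of 0.585; the secretory pathway has a median of 0.46 in HSA/d5 over HSA/d1, and the ratios of HSA+SB/d5 are the narrowest.

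Neither HSA+LDN/d5 nor HSA+SB+LDN/d5 entered the selection, so comparing these 2 conditions uses libraries that did not choose the members. The comparison is still not independent of the selection, which bounded the SB431542 ratio in HSA for clusters of the same islet preparations. Small changes of the members with SB431542 were therefore favoured in advance. In HSA+SB+LDN/d5 vs HSA+LDN/d5, 1 of the 100 members was called lower and 0 were called higher (edgeR's quasi-likelihood test after TMM normalisation, adjusted p below 0.05), where 1.21% and 0.532% of all genes were called. The member was CTNNB1. At an unadjusted p below 0.05 there were 12 members, 5 higher and 7 lower, against 13.7% of all genes. Those shares are close to the background and are no result about the members.

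CTNNB1 (ENSSSCG00000011274) encodes β-catenin, which joins cadherins to the actin skeleton and carries Wnt signals to the nucleus. Its CPM were 1339.8, 1296, 1166 and 1175 in HSA+LDN/d5 and 947, 1003, 951 and 937 in HSA+SB+LDN/d5. The 2 groups did not overlap, and the spread was small in both. CTNNB1 fell by 0.36 on the log2 scale (SE 0.072, adjusted p = 0.0103 with edgeR). Without the library 1 of HSA+LDN/d5 the log2 fold change was -0.32 and the adjusted p 0.051 with edgeR, just past the threshold, so the call was lost. CTNNB1 was called in 14 of the 15 settings tried. Over these settings the log2 fold change lay between -0.39 and -0.32, with an adjusted p (edgeR or DESeq2) between 5.15e-05 and 0.051.

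In the other conditions CTNNB1 was at 1166, 1306, 1237 and 1280.0 CPM in HSA/d1, 1476, 1421, 1503 and 1219.6 in HSA/d5 and 1327, 1071, 1284 and 1172 in Fet-A/d5. In HSA+SB/d5 it was at 927, 963, 985 and 924. All 8 libraries with SB431542 therefore lay below all 16 libraries without it. CTNNB1 was the only member for which this was so, 0 members lay above in the same way, and 0.472% and 0.35% of all genes did. These counts are close to the background and are no result about the members, whose SB431542 ratio the selection bounded. The SB431542 ratio of CTNNB1 without LDN was -0.56, close to the bound, and was used in the selection.

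The other members with low values in HSA+SB+LDN/d5 did not pass the test with edgeR. TNFRSF21 (ENSSSCG00000001727), the death receptor 6, had the most negative log2 fold change, -0.48 (SE 0.157, adjusted p = 0.145). Its CPM were 508, 674, 448 and 405 in HSA+LDN/d5 and 331, 439, 333 and 341 in HSA+SB+LDN/d5, with overlap of 1 library. TPM4 (tropomyosin, which winds along actin filaments) was at 793, 912, 758 and 829 CPM in HSA+LDN/d5 and at 628, 645, 652 and 758 in HSA+SB+LDN/d5, a log2 fold change of -0.28 (SE 0.087, adjusted p = 0.118). PLXNB2, a receptor for semaphorins, was at 779, 798, 715 and 701 against 617, 689, 626 and 590.4 CPM (log2 fold change -0.23, SE 0.067, adjusted p = 0.0897). With the Wald test of DESeq2, TPM4 and PLXNB2 were called as well as CTNNB1, with adjusted p values of 0.0474 and 0.0199.

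At the other end, SAT1 (an acetyltransferase of polyamines) had the most positive log2 fold change, 0.31 (SE 0.231, adjusted p = 0.611 with edgeR). Its libraries ranged from 481 to 821 CPM in HSA+LDN/d5 and from 643 to 973 in HSA+SB+LDN/d5 and overlapped. RPS4X, a protein of the small ribosomal subunit, was at 1208, 1035, 1065 and 1037 against 1466, 1272, 1244 and 1216 CPM. These groups did not overlap in CPM, but the log2 fold change of 0.28 (SE 0.113) had an adjusted p of 0.266 with edgeR.

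All 4 HSA+SB+LDN/d5 libraries lay below all 4 HSA+LDN/d5 libraries for 7 members, where this held for 5.59% of all genes. They were CTNNB1, TPM4 (barely, 758.1 against 758.0 CPM), PLXNB2, the actin cross-linker FLNA, the RNA helicase DDX5, the survival factor MCL1 and ENSSSCG00000006395. The reverse held for 10 members, where 4.33% of all genes did so, among them RPS4X, the chaperone HSP90AB1, the RNA-binding protein YBX1 and the helicase DDX3X. With CPM scaled by TMM the counts were 5 and 8. PLXNB2, MCL1, RPS4X, CD164 and TMED10 then overlapped, and TMBIM6 newly lay above without overlap. TPM4, PLXNB2, FLNA, MCL1, YBX1, CD164, TMBIM6 and ENSSSCG00000006395 were singled out after their values were seen.

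**Figure D3:**
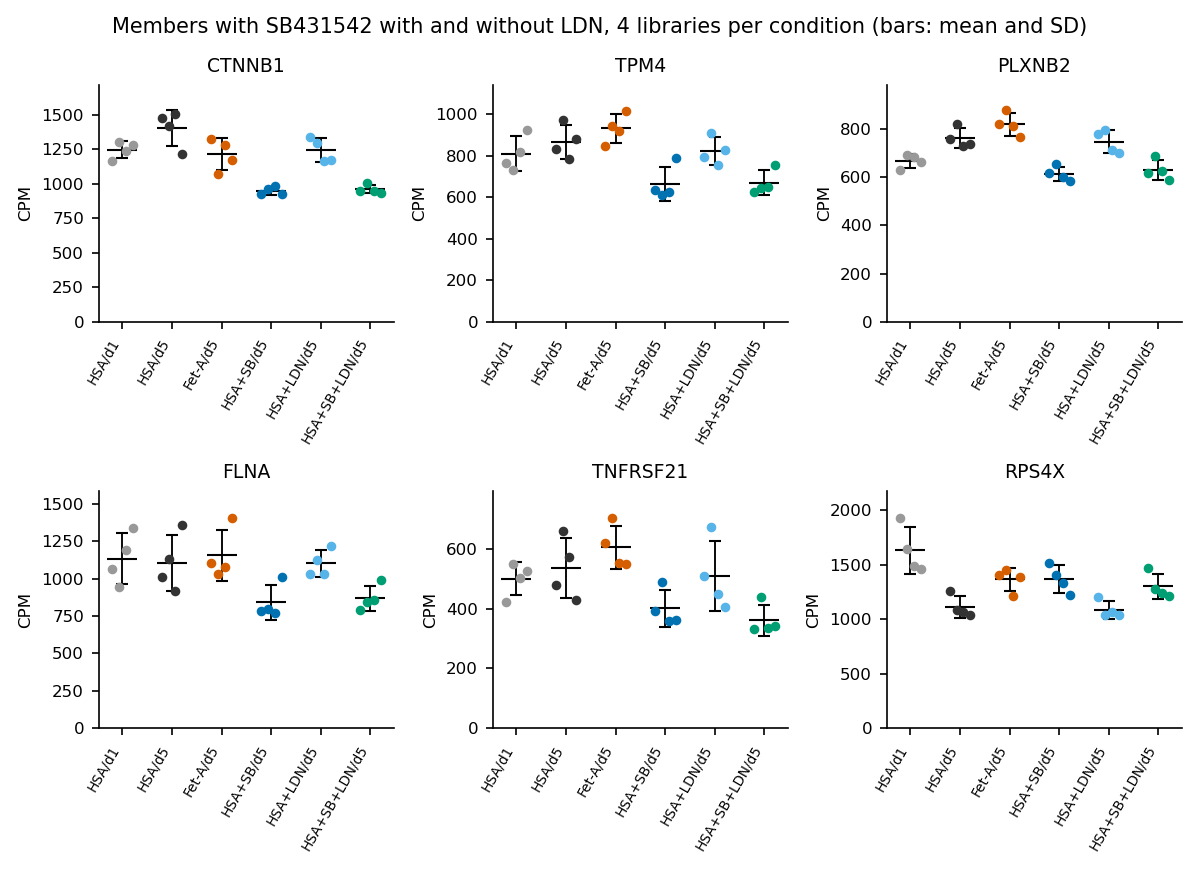
CPM (vertical axis, from 0) of CTNNB1, TPM4, PLXNB2, FLNA, TNFRSF21 and RPS4X in the 6 conditions on the horizontal axis. Points are libraries (n = 4) and black bars the mean and SD; the 8 CTNNB1 libraries with SB431542 lie between 924 and 1003 CPM, below the other 16.

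Over all members the median log2 fold change in HSA+SB+LDN/d5 vs HSA+LDN/d5 was 0.023, with a range from -0.48 to 0.31, beside a median of 0.002 over all genes tested. The median size of the change was 0.078 for members, 0.117 for all genes and 0.323 for the 99 genes left out. These 99 were at least as abundant as the last member and were not matched to the members. In ratios of mean CPM, 0 of 100 members reached the bound in this comparison, against 19 of the 99 left out (19.2%) and 5.69% of all genes. TNFRSF21, at -0.49, was the nearest, and it passed the bound without the library 4 of HSA+LDN/d5 (-0.59) or the library 2 of HSA+SB+LDN/d5 (-0.60). The genes left out were chosen for large ratios in HSA+SB/d5 and the other conditions, and the members for small ones. A difference between the sets was thus favoured by the selection. The small changes of the members are described here without a test between the sets.

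The SB431542 ratio of a member without LDN and the one with LDN come from separate libraries, 8 in each case. For 90 of 100 members they had the same sign. Among the 25 members with an SB431542 ratio of 0.2 or more in size, all 25 had it, 12 lower and 13 higher. Across the 100 genes Pearson's r was 0.925 and Spearman's rho 0.900. Genes are not independent replicates, all libraries stem from the same 4 islet preparations, and the selection confined the ratio on the horizontal axis. The same correlation was 0.971 over the 99 genes left out and 0.886 over all 14842 genes, so it was not particular to the members. The median size was 0.098 without and 0.080 with LDN.

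Within this pattern, members with lower ratios in both settings included CTNNB1, TNFRSF21, the tetraspan protein TM4SF1 (-0.50 and -0.35), DDR1 (a collagen receptor, -0.39 and -0.23), FLNA (-0.39 and -0.34), TPM4 (-0.38 and -0.30), MYH9 (-0.30 and -0.27) and ITGB1 (the β1 integrin chain, -0.27 and -0.24). KRT8 (0.32 and 0.26), KRT18 (0.26 and 0.21), RPS4X (0.30 and 0.26) and SAT1 (0.37 and 0.29) had higher ratios in both. These genes were picked after their values were seen, and of them CTNNB1 passed the test. By role, 11 of the 15 matrix and cell surface members and 8 of the 13 members of the cytoskeleton were below 0 with LDN, whereas 9 of the 10 metabolic members were above 0, with a median ratio of 0.11. These counts were the same after TMM scaling, and the median of 10 metabolic members was then 0.13. Of the 14842 genes tested, 7929 were below 0 and 6913 above by library total, and 7355 were below and 7487 above after TMM scaling.

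**Figure D4:**
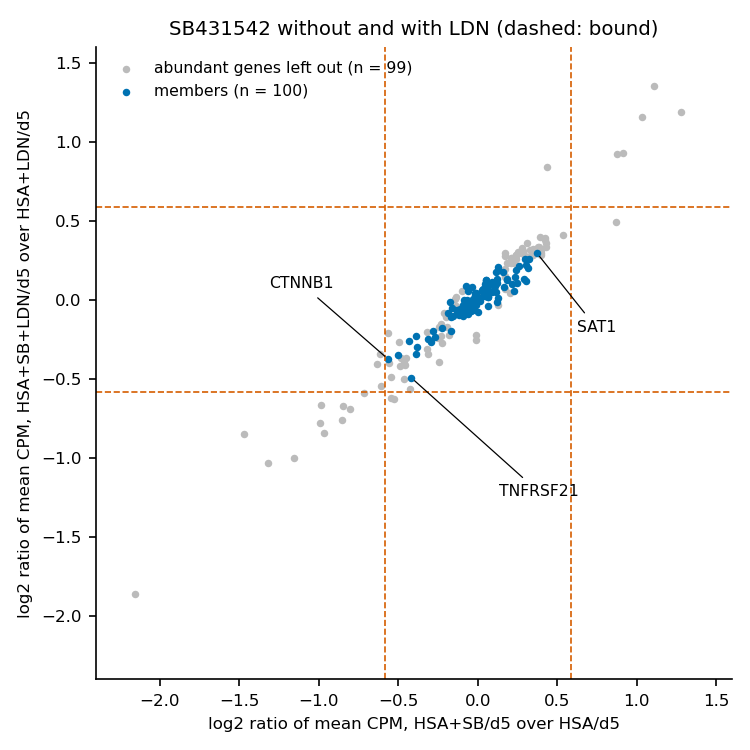
Log2 ratio of mean CPM with SB431542 in HSA (horizontal axis) and in HSA+LDN (vertical axis). The 100 members are in blue and the 99 abundant genes left out in grey. Each point is a gene and dashed lines are the bound; members lie along the diagonal (r = 0.925), with CTNNB1, TNFRSF21 and SAT1 labelled.

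Markers of other cell types were examined in the same comparison. The summed CPM of 13 mesenchyme and stellate genes was between 7915 and 12239 in HSA+LDN/d5 and between 5705 and 7860 in HSA+SB+LDN/d5, and 2 of the 13 were called lower, with a median log2 fold change of -0.67. The only member among these genes was VIM, the intermediate filament protein vimentin, with a log2 fold change of -0.05. The 9 acinar genes with an identifier summed to between 1614 and 12865 CPM in HSA+LDN/d5 and between 3610 and 19734 in HSA+SB+LDN/d5, and 0 of the 7 tested were called (median 0.86). The 8 duct genes summed to between 4383 and 5642 in HSA+LDN/d5 and between 4668 and 5519 in HSA+SB+LDN/d5. The 5 endothelial genes summed to between 382 and 544 and between 371 and 854, and the 10 immune genes to between 55.2 and 107 and between 84.1 and 118. For 5 hormone genes the sums were between 17845 and 34189 and between 16285 and 27515. Of these, 1 duct gene and 1 endothelial gene were called higher, and no hormone or immune gene was called. Mesenchyme was the only one of these lists whose sums did not overlap between the 2 conditions, and its part in the values of CTNNB1, TPM4 or FLNA was not tested.

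LDN by itself was compared in HSA+LDN/d5 vs HSA/d5, which shares the HSA/d5 libraries with the selection. With edgeR 0 members were called, as were 0 of all genes. At an unadjusted p below 0.05 there were 2 members (CTNNB1 and CFL1), against 1.21% of all genes. That share is below what a threshold of 0.05 would give with no change at all, so the unpaired test was strict here. The 0 calls therefore do not show that LDN had no effect. With DESeq2 0 members were called, and 2 had an unadjusted p below 0.05. Log2 fold changes had a median of -0.03 and ranged from -0.30 for SPP1 to 0.12. The second most negative was CTNNB1, at -0.18 (SE 0.072), and the most positive were SLC4A4, a bicarbonate cotransporter, at 0.12, and AHCYL1, a regulator of the IP3 receptor, at 0.10. SLC4A4 was at 795, 903, 651 and 579 CPM in HSA/d5 and at 958, 867, 751 and 621 in HSA+LDN/d5, with broad overlap. In ratios of mean CPM, 88 of the 100 members were within 0.1 of 0 and none reached the bound, which 0.424% of all genes did.

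LDN in the presence of SB431542 was assessed by setting HSA+SB+LDN/d5 against the condition without LDN, HSA+SB/d5, which was part of the selection. With edgeR 0 members and 0 of all genes were called, and 2 members, SRRM2 and HSP90B1, had an unadjusted p below 0.05, against 2.75% of all genes. DESeq2 called 0, with 3 at an unadjusted p below 0.05. None reached the bound, which 0.674% of all genes did. The interaction of SB431542 with LDN asks whether the change with SB431542 differed with and without LDN. By edgeR it was called for 0 members, and 0 members had an unadjusted p below 0.05, against 1.17% of all genes. The shares of 2.75% and 1.17% are below what that threshold would give with no change at all. The 0 calls thus do not show that an effect of LDN or an interaction was absent.

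Spread between libraries of a condition was measured in HSA+LDN/d5 and HSA+SB+LDN/d5, which had no part in the selection, as the pooled SD of log2 CPM. These libraries are no independent check on the spread, because each deviated most like certain libraries of the other conditions, as described below. The median SD was 0.102 over the members and 0.198 over the 99 genes left out, which were at least as abundant as the last member. Over all genes, most of them less abundant, it was 0.159. Neither of these sets was matched to the members in abundance. The smallest SD of a member was that of TMED10, a carrier of the early secretory pathway, at 0.018, followed by DDX3X at 0.021. TMED10 was at 569, 569, 576 and 568 CPM in HSA+LDN/d5 and at 589, 602, 581 and 582 in HSA+SB+LDN/d5. DDX3X was at 502, 510.5, 511 and 499 and at 516, 532, 513 and 527. Both genes separated the groups in CPM without a call, and TMED10 no longer did after TMM scaling.

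The largest SD was that of VIM (0.438), followed by PAM (0.347) and KRT7 (0.318). VIM was at 863, 719, 1018 and 1581 CPM in HSA/d1, 1099, 925, 918 and 1910.1 in HSA/d5, 876, 659, 767 and 1742 in Fet-A/d5, 1036, 837, 965 and 1763 in HSA+SB/d5, 1148, 947, 1003 and 1848 in HSA+LDN/d5, and 1104, 837, 1069 and 1737 in HSA+SB+LDN/d5. In all 6 conditions library 4 was the highest, at 1.55-fold to 1.99-fold the next. The means, between 1011 and 1236, differed far less than the libraries within a condition. PAM, the enzyme that amidates peptide hormones, ranged from 459 to 827 CPM within HSA/d5, and KRT7, a duct keratin, from 558 to 963. PAM was highest in library 3 and KRT7 in library 2 in 5 of 6 conditions each. Libraries are numbered here in the order of their accessions within a condition, and no label says what libraries of the same number share. Over all genes tested, 24 of 24 libraries deviated from their condition mean most like those of their own number in the other conditions. The spread of these 3 genes thus followed the library number, and the unpaired tests above count such spread as error.

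Lists of genes of the same pathways show where the members stand among their kin. Of 44 ribosomal protein genes tested, RPS4X was the only member. Of the other 43, 41 were called lower and 0 higher in HSA/d5 vs HSA/d1 (median log2 fold change -0.88), and 30 were called higher and 2 lower in Fet-A/d5 vs HSA/d5. RPS4X itself had ratios of -0.55 and 0.30 in these comparisons. Of 15 secretory granule genes PAM was the only member, and all the other 14 were called higher in HSA/d5 vs HSA/d1 (median 2.11) and 12 of them lower in Fet-A/d5 vs HSA/d5, whereas the ratios of PAM were 0.49 and -0.12. The directions of both lists held under all 4 scalings of the libraries. Genes that are not members are by construction those past the bound or less abundant, so these counts place the members and do not test them.

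Among 17 glycolysis genes 4 were members (PKM, GAPDH, ENO1 and ALDOA), and of the other 13, 1 was called higher and 5 lower in HSA/d5 vs HSA/d1. Chaperones and folding enzymes gave 7 members of 25 (HSPA8, HSP90AB1, HSPA5, CANX, PDIA3, P4HB and HSP90B1), with 5 higher and 5 lower among the other 18. Splicing and RNA-binding genes gave 9 of 16, with 1 higher and 1 lower among the other 7. The cytoskeleton gave 8 of 17 (0 higher and 1 lower among 9), keratins and junctions 7 of 12 (0 and 4 among 5), and ferritin, secreted and lysosomal genes 6 of 13 (3 and 2 among 7). Translation factors gave 2 of 17 (0 and 11 among 15), ubiquitin and proteasome 2 of 17 (0 and 12 among 15), and the respiratory chain 2 of 26 (1 and 11 among 24). Duct markers gave 2 of 8 (0 and 3 among 6) and mesenchyme 1 of 13 (0 and 1 among 12). Hormones, acinar, endothelial and immune markers gave no member among 4, 7, 5 and 10 tested, and of these 3, 1, 0 and 5 were called higher and 0, 2, 0 and 0 lower. In HSA+SB+LDN/d5 vs HSA+LDN/d5, 0 ribosomal protein genes were called, and their median log2 fold change was 0.31, beside 0.28 for RPS4X. Among keratins and junctions 1 gene was called higher beside CTNNB1 lower, among chaperones 1 was called higher, and among the remaining lists of common machinery, granules and lysosomes none was called.

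Commonly used reference genes for qRT-PCR gave 3 members of 15 tested, ACTB, GAPDH and YWHAZ. Of the other 12, 1 was called higher and 7 lower in HSA/d5 vs HSA/d1, and 4 higher and 2 lower in Fet-A/d5 vs HSA/d5. In HSA+SB+LDN/d5 vs HSA+LDN/d5, 0 of the 15 were called. ACTB (ENSSSCG00000007585) was at 2238, 1951, 2341 and 2349.7 CPM in HSA/d1, 1926, 2222, 1647 and 2051 in HSA/d5, 1649, 1623, 1647 and 1839 in Fet-A/d5 and 1846, 1797, 1724 and 1881 in HSA+SB/d5. All Fet-A/d5 libraries of ACTB lay below all those of HSA/d1.

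GAPDH (ENSSSCG00000000694), the glycolytic dehydrogenase, was at 2004, 1786, 1077 and 1662 CPM in HSA/d1 and between 993 and 1626 in the other 20 libraries. The 4 HSA/d1 libraries differed by more than the means of all conditions, which lay between 1149 and 1632. YWHAZ (ENSSSCG00000006062), a 14-3-3 adaptor protein, had means of 659.9 ± 74.0 in HSA/d1, 545 ± 56.1 in HSA/d5, 496 ± 6.57 in Fet-A/d5 and 584 ± 23.8 in HSA+SB/d5 (SD, n = 4 each).

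RPS13 (ENSSSCG00000013381), a ribosomal protein gene that served as housekeeping gene for qRT-PCR in the study, was not a member. Its CPM were 585, 525, 424 and 402 in HSA/d1 and 285, 269, 244 and 252 in HSA/d5, without overlap. RPS13 fell by 0.97 on the log2 scale in HSA/d5 vs HSA/d1 (SE 0.135, adjusted p = 3.08e-05 with edgeR), and the log2 fold change was between -1.06 and -0.82, with a call, in all 15 settings. With fetuin-A its libraries were at 324, 363, 262 and 332 CPM, with SB431542 at 359, 357, 300.2 and 297, with LDN at 288, 262, 249 and 245 and with both agents at 360.0, 328, 315 and 279. Relative to all counted reads, RPS13 was thus lower on maturation day 5 than on day 1, and the qRT-PCR itself was not analysed here.

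**Figure D5:**
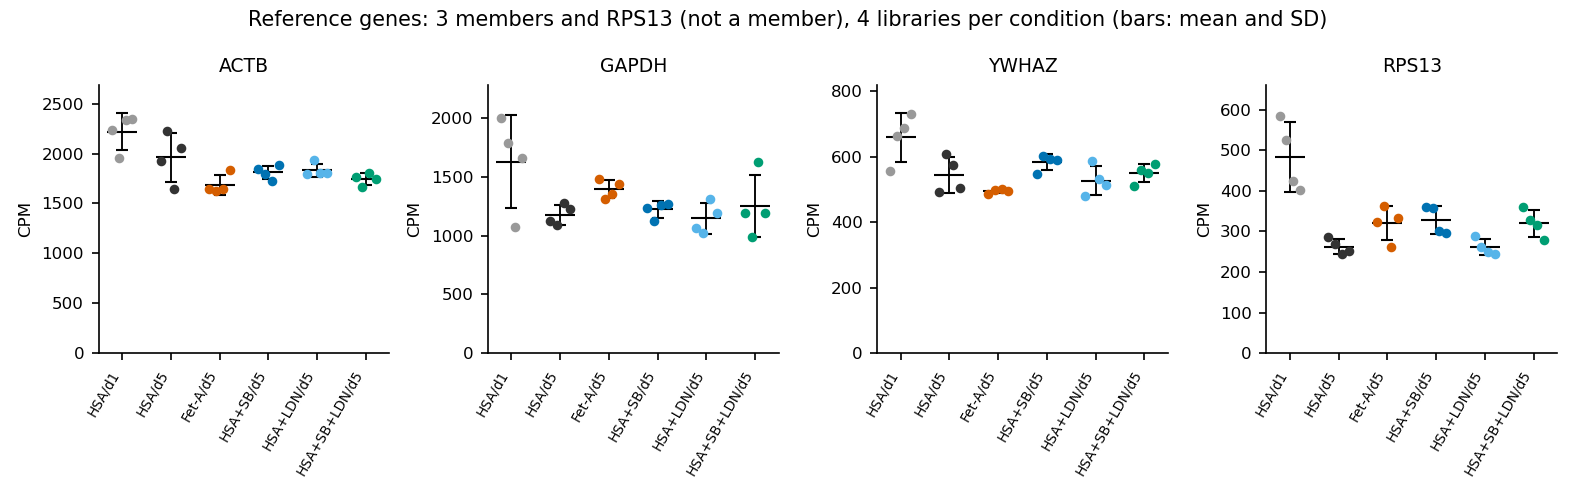
CPM (vertical axis, from 0) of the reference genes ACTB, GAPDH and YWHAZ, which are members, and RPS13, which is not, in the 6 conditions on the horizontal axis. Points are libraries (n = 4) and black bars the mean and SD; RPS13 lies between 402 and 585 CPM in HSA/d1 and between 244 and 363 in all other libraries.

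The 9 members without a symbol cannot be placed by role. Their mean CPM in HSA/d5 ran from 511 for ENSSSCG00000031023 to 1439.6 for ENSSSCG00000014540, and none was called in HSA+SB+LDN/d5 vs HSA+LDN/d5. ENSSSCG00000006395 lay below in all 4 libraries of HSA+SB+LDN/d5 (log2 fold change -0.18), and ENSSSCG00000037030 (0.24) and ENSSSCG00000000405 (0.20) lay above. ENSSSCG00000000104 and ENSSSCG00000016075 had the smallest ratios among these 9, at most 0.13 and 0.16 in size over the 3 ratios of the selection.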

How the data were processed

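RNA was measured by strand-specific RNAseq of poly-A RNA in 24 libraries, and conditions were taken from the sample labels. Unnormalised counts of reads per gene were deposited by the authors in 1 table with a column per library, also for 6 libraries listed as 2 runs. No column was left unused (0 of 24). The submitters' processing notes name FastQC 0.11.8, Trim Galore 0.5, STAR 2.6.1, Picard, featureCounts 1.6.2 and DESeq2 1.22.1. The genome build, the annotation, the strand setting of the counting and the way runs were joined are not given in the sources used here, so reads of overlapping or antisense genes may not be told apart. Symbols came from a table pairing Ensembl identifiers with names, which matched 14857 of 25880.

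CPM and ratios were computed with pandas 2.3.3 in Python 3.11.15. Tests used edgeR 4.0.16 in R 4.3.3 on the counts of the 14842 genes passing filterByExpr, with TMM, 1 coefficient per condition over all 24 libraries, glmQLFTest and Benjamini-Hochberg adjustment over all genes tested, at 0.05. The procedure was tested on simulated counts. Alternatives were other scalings, no filter, DESeq2 1.42.0, a fit of only the conditions compared, membership by TMM-scaled CPM or by medians, and each library left out. Named genes were the 10 most abundant members, the 2 with the most positive and the 2 with the most negative change in each LDN comparison against HSA+LDN/d5 or HSA/d5, the 3 nearest to the bound on either side, the 3 with the smallest and the 3 with the largest spread, ranks 99 and 100 and the next gene, RPS13, the 3 most abundant members of each list and any member called. Genes named beyond these were singled out after their values were seen. One gene that the rule names is not reported here. The members, the lists and the rule for naming were chosen with earlier results of these data known, and the roles were assigned after the values were seen.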

Additional observations from a re-analysis of the deposited data

Results flagged for a closer look

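Single libraries were searched for values far from the other 3 of their condition, over 47 genes chosen for naming and 3 measures of the library (the total count, the members' share and the mitochondrial share), that is 300 groups of 4. In 17 the gap to the nearest library as a share of the range exceeded Dixon's 95% critical value, and chance alone gives about 1 in 20. Among members of the cytoskeleton and cell surface, ACTG1 was at 3445 CPM in library 3 of Fet-A/d5 (the other 3 at 3933 to 3957), ACTB at 1839 in library 4 of Fet-A/d5 (1623 to 1649) and at 1931 in library 2 of HSA+LDN/d5 (1797 to 1802), MYH9 at 1444 in library 2 of Fet-A/d5 (1184 to 1198), TNFRSF21 at 439 in library 2 of HSA+SB+LDN/d5 (331 to 341) and KRT7 at 963 in library 2 of HSA/d5 (558 to 600.3). Among genes of RNA and translation, PABPC1 was at 1224 in library 1 of HSA/d5 (1076 to 1098), HNRNPA2B1 at 924 in library 2 of HSA+SB/d5 (1001 to 1011) and HDLBP at 624 in library 2 of Fet-A/d5 (542 to 551).

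In library 4 of HSA/d1, HSP90AB1 was at 1366 CPM (1242 to 1260.5), SLC25A3 at 631 (569.9 to 577) and PTMA at 1404 (1296 to 1315), and in library 2 of HSA/d1 SAT1 was at 1230.4 (699 to 785). AHCYL1 was at 878 in library 4 of HSA+LDN/d5 (1048 to 1083), TMED10 at 576 in library 3 of HSA+LDN/d5 (568 to 569) and UBB at 715 in the same library (739 to 742). The members' share was 8.87% in library 2 of HSA+SB+LDN/d5 (8.68% to 8.69%). The gaps of TMED10 and of the members' share are small in absolute terms, and the result on TNFRSF21 without its library is given in the text on SB431542.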

How the results depend on the processing

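Across the settings, 163 values of the tests, shares and spread kept their side of the threshold or moved by less than the spread between libraries. The median ratio of the members, which is near 0, changed sign with scaling in the comparisons of the selection, from 0.0086 by library total to -0.068 with TMM in maturation and from -0.010 to 0.046 with fetuin-A. The count of members called lower in HSA+SB+LDN/d5 vs HSA+LDN/d5, 1 as reported, was 3 with the Wald test of DESeq2 (CTNNB1, TPM4 and PLXNB2) and 2 (CTNNB1 and PLXNB2) with no scaling beyond the library total, a setting added after the data were seen. With each library left out it was 0 to 1, the 0 without library 1 of HSA+LDN/d5, where CTNNB1 had a log2 fold change of -0.32; the number past the bound was 0 to 1, and the median of the members 0.016 to 0.037. The members' share, taken from counts outside the mitochondrial genome, was 9.55% in HSA/d1, 9.40% in HSA/d5, 9.86% in Fet-A/d5, 9.41% in HSA+SB/d5, 9.13% in HSA+LDN/d5 and 9.21% in HSA+SB+LDN/d5. Of the 100 members, 90 were also chosen with TMM-scaled CPM and 95 with medians. No paired analysis was run, because the labels give no replicate number and assign no library to an islet preparation. A block on the accession order, which the deviations of 24 of 24 libraries followed, was not fitted, and its effect on the calls is not known. In the unpaired LDN comparisons and the interaction, fewer genes had an unadjusted edgeR p below 0.05 than that threshold would give with no change. The absence of calls there is thus no evidence that an effect was absent. Counts of 6451 or more leave spread between libraries, not depth, as the limit.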
